A study of Mus musculus with 24 samples.

Results

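Ets1 and its relatives form the ETS family of transcription factors, and their messenger RNA was followed here in the striatum and cerebellum of mice that carry an expanded huntingtin allele. The genes were taken by name. Every probe set with a single gene symbol in the array's annotation was used if that symbol was an ETS factor, and Ets1 stood at the head of the list because it was already known from these data to be lower with the expanded allele in both tissues. The 10 factors named at the outset, Ets1, Ets2, Etv4, Etv5, Elk1, Elk3, Elk4, Erg, Fli1 and Elf1, had 29 probe sets. Of 26 family genes looked for, 24 had at least 1 such probe set, 57 in all, out of 18193 genes and 45037 probe sets on the array. Etv1 and Fev had none with a symbol of their own.

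The mice were homozygous either for HdhQ111, a knock-in allele of the huntingtin gene Hdh (now Htt), or for the wild-type allele Hdh+, which the labels write as Q7/Q7. Striatum and cerebellum of each genotype were hybridised to 6 Affymetrix arrays apiece, 24 arrays in 4 groups, and ages are given only as a range of 3 to 10 weeks for all groups. The expanded repeat sits in the mouse gene itself, so no transgene promoter is involved, and every cell of a Q111 animal carries 2 expanded alleles and no normal one. The labels give neither strain nor sex, nor whether 1 animal supplied both tissues. Replicates are labelled biological, with no animal named, so the tests measure the spread between these arrays, part of which may be technical. Values are deposited GCRMA values, a background-corrected and normalised summary of each probe set. They ran from -0.77 to 16.33 and were read as log2, although the base is not stated.

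ETS factors share a winged helix-turn-helix domain that binds DNA around a GGA core, and they differ in their partners and in the signals they answer to. Ets1 and Ets2 carry a Pointed domain next to a site phosphorylated by the ERK kinases. Elk1, Elk3 and Elk4 are the ternary complex factors, which sit with serum response factor (SRF) on promoters of immediate early genes such as Fos and are switched on by ERK. Etv4 and Etv5 belong to the PEA3 group, which is induced downstream of fibroblast growth factor receptors. Erg and Fli1 are best known from endothelial and blood-forming cells, and Ets1 is abundant in lymphocytes and endothelium. Erf, Etv3 and Etv6 act mainly as repressors, and Gabpa pairs with a beta subunit on promoters of housekeeping and mitochondrial genes.

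The tissue labels held in the marker genes. All 8 striatal neuron markers measured were higher in striatum (median difference 7.30 log2 in wild type) and all 12 cerebellar neuron markers were lower there (median -7.53). Arrays of a group correlated at 0.983 to 0.993 over the probe sets kept for testing, array medians lay between 3.38 and 3.51, and no pair of arrays was identical. Replicate numbers 1 to 3 and 4 to 6 stood in an unusual relation. Within a genotype their means differed over the kept probe sets with an SD of 0.242 and 0.229 in wild-type and Q111 striatum and of 0.166 and 0.159 in cerebellum. Averaged over both genotypes of a tissue the SD was 0.0534 and 0.0512, so the difference in one genotype was nearly the opposite of that in the other. The labels record no step that accounts for this. The tests do not allow for it, except in an alternative fit with the set of numbers as a term. A probe set was kept when its mean reached 4 in striatum or in cerebellum, which left 20738 of them, 46% of the total, and the brightest kept probe set stood for each of 10766 genes.

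Of the 10 named factors, 5 passed this filter: Ets1, Ets2, Etv5, Elk1 and Elk4. Etv4, Elk3, Erg, Fli1 and Elf1 did not, so nothing is said of their response to genotype beyond their values. From the rest of the family Elf2, Erf, Etv3, Etv6 and Gabpa passed, giving 10 genes with 19 probe sets between them (10 of the named factors and 9 of the others). The 14 family genes that were measured and did not pass include Spi1, the factor of microglia and macrophages, whose highest group mean was 2.26. Values of different probe sets are not on a common scale per molecule, so levels are compared within a probe set and not between genes.

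**Figure D1:**
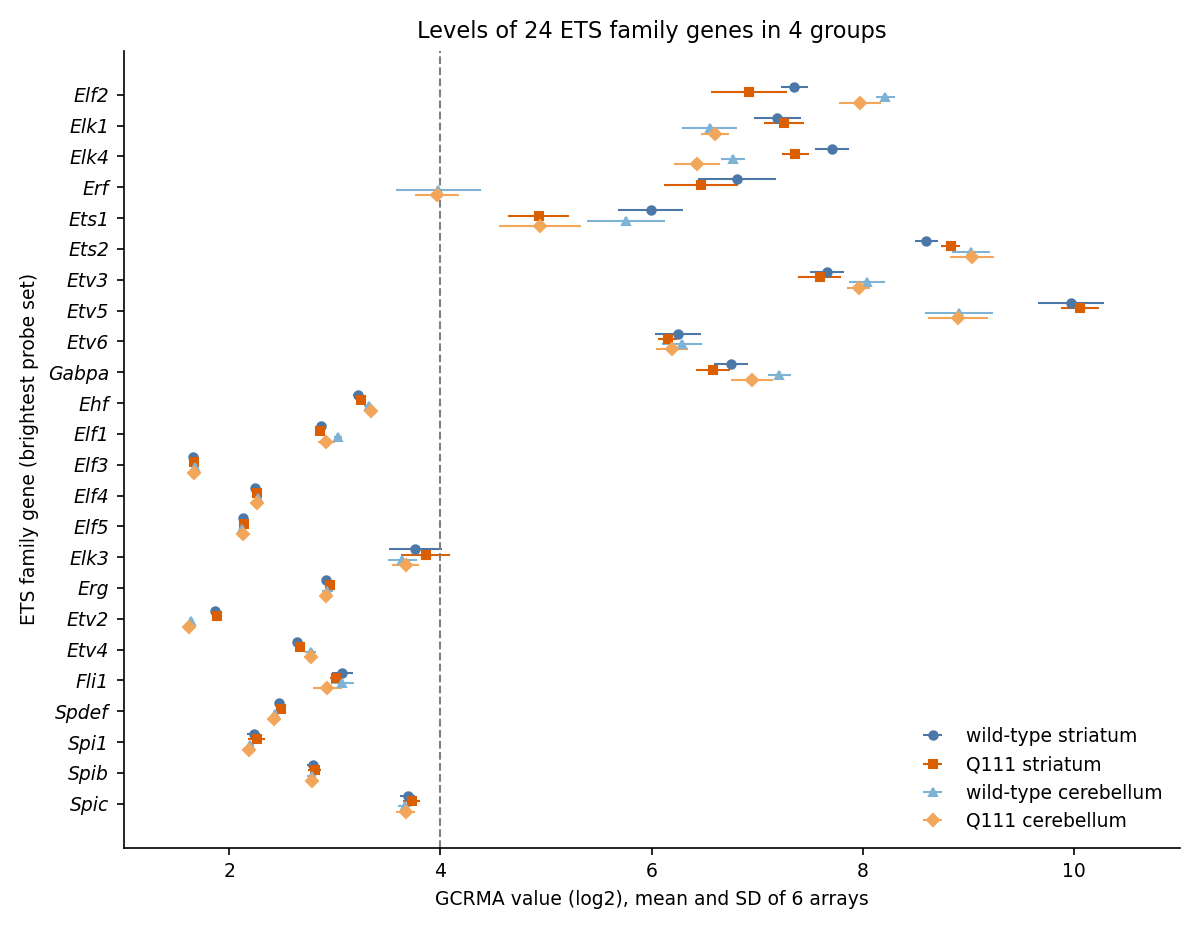
GCRMA value on the log2 scale (horizontal axis) for the brightest probe set of each of the 24 ETS genes with a probe set, as the mean and SD of 6 arrays in each of the 4 groups. The dashed line marks the filter at 4; the 10 genes that passed are listed first and the 14 that did not are below them, each block in alphabetical order.

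Ets1 was lower in Q111 than in wild type in both tissues, by 1.05 log2 in striatum and 0.82 in cerebellum. On its brightest probe set, 1452163_at, wild-type striatum ran from 5.65 to 6.43 (median 5.94) and Q111 striatum from 4.58 to 5.39 (median 4.98). Wild-type cerebellum ran from 5.28 to 6.16 (median 5.79) and Q111 cerebellum from 4.48 to 5.60 (median 4.92). In striatum the highest Q111 array lay under the lowest wild-type array. In cerebellum the groups overlapped, because Q111 array 6 at 5.60 stood above 3 wild-type arrays.

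The group means of Ets1 were 5.99 ± 0.31 in wild-type and 4.93 ± 0.29 in Q111 striatum, and 5.76 ± 0.37 and 4.94 ± 0.39 in cerebellum (SD, n = 6 arrays each). The difference between genotypes was therefore -1.05 (SE 0.19) in striatum, a 2.08-fold lower value, and -0.82 (SE 0.19) in cerebellum, 1.76-fold lower. All 6 Q111 arrays of each tissue lay under the wild-type mean of that tissue. Ets1 was chosen for these values, so they are a description and no test is given for them. In the bulk RNA of a tissue, fewer cells that make Ets1 and less Ets1 per cell cannot be told apart.

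A second Ets1 probe set, 1426725_s_at, gave smaller differences of the same sign. It ran from 5.07 to 5.96 (median 5.39) in wild-type and from 4.89 to 5.04 (median 4.98) in Q111 striatum, a difference of -0.49 (SE 0.13). In cerebellum it ran from 4.90 to 5.49 (median 5.22) in wild type and from 4.33 to 5.00 (median 4.74) in Q111, a difference of -0.43 (SE 0.13). Again the genotypes were separate in striatum and overlapped in cerebellum. The 6 Q111 striatal arrays were packed closely on this probe set, with an SD of 0.05 against 0.33 in wild type. After group means were subtracted, both probe sets correlated at r = 0.54 over the 24 arrays, a description of values from the same hybridisations.

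The other Ets1 probe sets did not pass the filter. Group means of 1422027_a_at lay between 3.07 and 3.16 and those of 1422028_a_at between 2.25 and 2.27, with genotype differences between -0.09 and 0.01. Where along the transcript any of the 4 probe sets lies is not given in the annotation used, so isoforms are not distinguished here.

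**Figure D2:**
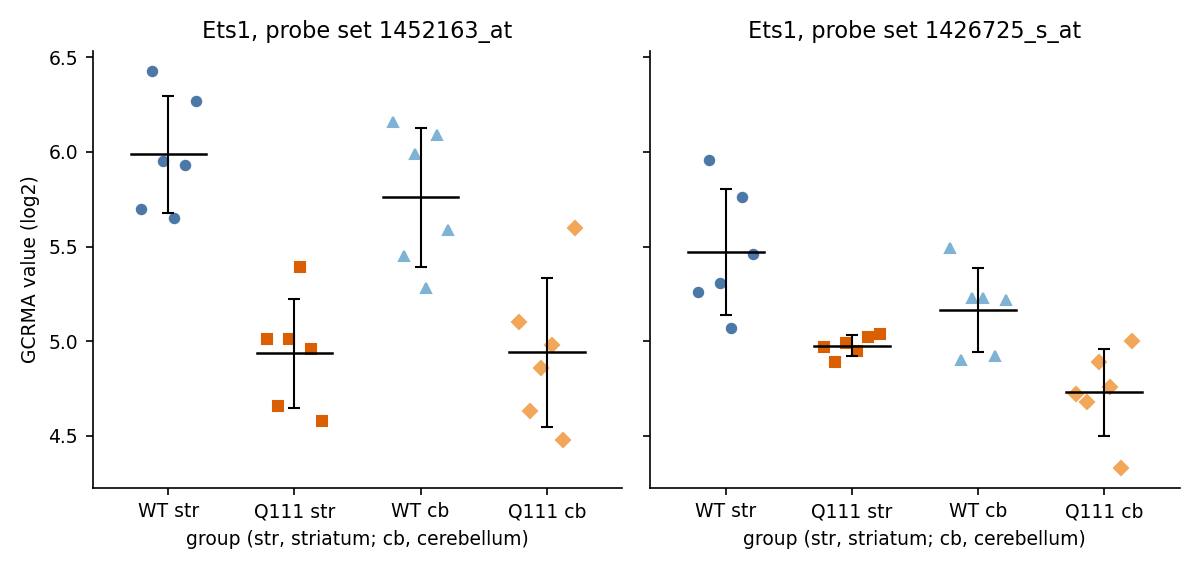
Ets1 on each of the 24 arrays (points) by group, for the 2 probe sets above the filter, with the group mean and SD as bars; the vertical axis is the GCRMA value on the log2 scale. WT is wild type, str is striatum and cb is cerebellum. On 1452163_at the Q111 striatal arrays reach 5.39 and the wild-type ones start at 5.65, while a single Q111 cerebellar array at 5.60 lies among the wild-type values.

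The difference between tissues played no part in choosing Ets1, and on its brightest probe set it missed the threshold in both genotypes. On 1452163_at wild-type striatum was 0.23 log2 above wild-type cerebellum (95% interval -0.16 to 0.62, limma adjusted p = 0.279; two-sided exact permutation p = 0.26), and in Q111 the difference was -0.01 (adjusted p = 0.974; exact p = 0.974). On 1426725_s_at striatum was 0.31 higher in wild type (limma adjusted p = 0.0363, exact permutation p = 0.0866) and 0.25 higher in Q111 (adjusted p = 0.0888, exact p = 0.0152). The limma p-values are adjusted over all kept probe sets and the exact ones are not adjusted, so they are unlike measures. Neither genotype lay under 0.05 by both. In order, the Ets1 means ran from wild-type striatum through wild-type cerebellum to both Q111 groups. Neither the upper pair nor the lower pair of that order differed on 1452163_at beyond the spread of its arrays. It is not stated whether striatal and cerebellar arrays were normalised in 1 run, and their lowest values differ (0.36 and -0.77), which limits every comparison of tissues.

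Elk4, a ternary complex factor, was the only one of the 9 ETS genes tested by genotype to pass. On 1427162_a_at it ran from 7.50 to 7.89 (median 7.69) in wild-type striatum and from 7.15 to 7.49 (median 7.42) in Q111 striatum, without overlap but only just apart. It fell by 0.35 log2 there (SE 0.09, 95% interval -0.54 to -0.15, limma adjusted p = 0.0447; lower in 6 of 6 arrays), a 1.27-fold decrease. In cerebellum it ran from 6.62 to 6.94 (median 6.76) in wild type and from 6.10 to 6.74 (median 6.42) in Q111. That difference, -0.34 (SE 0.09, lower in 6 of 6 arrays), was of the same size and missed the threshold (adjusted p = 0.101).

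The Elk4 call lies near the threshold. It was lost when any of 16 of the 24 arrays was left out (adjusted p from 0.0276 to 0.111 over all 24 omissions) and under 6 other settings, including no filter on low values (0.0747), the set of replicate numbers as a term (0.0734) and each tissue fitted alone (0.0561). The 8 arrays whose omission kept the call were wild-type striatum 1, Q111 striatum 3, wild-type cerebellum 1, 2 and 4, and Q111 cerebellum 4, 5 and 6. The estimate itself stayed between -0.42 and -0.28 under all settings and omissions. The other 3 Elk4 probe sets lay between 1.08 and 2.31 in group means, near the lowest values of the arrays.

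A promoter of Elk4, the gene called in striatum, is shown with promoters of Gabpa and Elf2, the genes next to it in likeness to Ets1 with tissue means removed, a measure that contains the contrast on which Ets1 was chosen. The printed ones were picked because each holds a match to the ETS recognition sequence. RefSeq lists 3 promoters for Elk4 and 2 for Elf2; another one of Elk4 holds a match at -133, and the remaining ones of Elk4 and Elf2 hold none. The sequences are RefSeq's on GRCm38.p6, 250 bases ending just before an annotated start, 5′ to 3′ along the gene. Capitals mark CGGAAG, or its reverse complement CTTCCG.
Elk4: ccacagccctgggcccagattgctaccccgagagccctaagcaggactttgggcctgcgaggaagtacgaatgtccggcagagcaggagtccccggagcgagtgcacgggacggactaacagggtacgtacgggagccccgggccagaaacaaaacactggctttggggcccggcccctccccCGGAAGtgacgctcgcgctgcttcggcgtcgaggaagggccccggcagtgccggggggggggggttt
Gabpa: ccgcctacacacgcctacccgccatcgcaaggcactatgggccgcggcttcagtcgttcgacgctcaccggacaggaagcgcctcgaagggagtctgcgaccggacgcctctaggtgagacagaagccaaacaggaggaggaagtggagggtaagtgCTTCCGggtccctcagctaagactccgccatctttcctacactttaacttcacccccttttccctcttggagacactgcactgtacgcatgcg
Elf2: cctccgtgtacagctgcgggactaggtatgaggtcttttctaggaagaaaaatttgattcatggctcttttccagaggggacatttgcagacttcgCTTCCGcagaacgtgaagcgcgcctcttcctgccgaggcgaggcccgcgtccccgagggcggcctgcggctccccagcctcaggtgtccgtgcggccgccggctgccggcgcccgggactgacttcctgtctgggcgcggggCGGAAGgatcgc
They lie at chr1:132007370-132007619 on the plus strand, chr16:84834874-84835123 on the plus strand and chr3:51277515-51277764 on the minus strand. The first base of the match stands at -67 in the Elk4 promoter and at -93 in that of Gabpa, counted back from the start.

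Both strands of 32851 RefSeq mouse promoters of this length were searched. CGGAAG was in 13.6% of them and in 5 of 31 ETS promoters, those of Elf2, Etv3 and Gabpa and 2 of Elk4. The longer CCGGAAGT, which contains CGGAAG, was in 2.88% of all promoters and in 1 of the 31, the Elk4 promoter printed here. The GC-rich GGGCGG was in 32.7% of all and in 17 of the 31. These matches are letters in a window and say nothing about occupancy. Of the 10 genes above the filter 9 had a promoter entry, 13 promoters in all, and Ets1 had none.

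Elf2, an ETS activator of the ELF group, had the largest genotype difference in striatum among the brightest probe sets of the 9 ETS genes other than Ets1, although it was not called. It ran from 7.17 to 7.49 (median 7.38) in wild type and from 6.45 to 7.36 (median 6.99) in Q111, a difference of -0.43 (SE 0.12) that missed the threshold (adjusted p = 0.0576; lower in 5 of 6 arrays). Q111 arrays 1 and 6, at 6.45 and 6.53, were the lowest, and the Q111 spread (SD 0.36) was wider than that of wild type (SD 0.13). In cerebellum the difference was -0.24 (SE 0.12, adjusted p = 0.392). Its second kept probe set, 1428045_a_at, gave -0.18 (adjusted p = 0.447) and -0.07 (adjusted p = 0.857).

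Gabpa, the DNA-binding subunit of GA-binding protein, differed by -0.16 (SE 0.09, adjusted p = 0.355) in striatum and by -0.26 (SE 0.09, adjusted p = 0.209) in cerebellum on 1450664_at. Its other kept probe set, 1450665_at, gave 0.09 and -0.08, so the sign in striatum depended on the probe set. Among the repressors, Erf had a difference of -0.34 in striatum (SE 0.19, adjusted p = 0.333) and -0.01 in cerebellum. Etv6 had -0.10 in both tissues (95% interval -0.30 to 0.10 in each), and Etv3 had -0.07 and -0.08 on its brightest probe set. The dimmer kept Etv3 probe sets gave 0.20 and -0.28 (1456358_at) and -0.02 and -0.12 (1418635_at), none past the threshold.

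Ets2, Elk1 and Etv5, all of which answer to ERK signalling, missed the threshold in both tissues. Ets2, the closest relative of Ets1, ran from 8.44 to 8.74 (median 8.58) in wild-type striatum and from 8.71 to 8.96 (median 8.83) in Q111 striatum. The groups overlapped only at 8.71 to 8.74, and the difference of 0.23 (SE 0.09, higher in 6 of 6 arrays) missed the threshold (adjusted p = 0.159). In cerebellum it was 0.01 (95% interval -0.18 to 0.20). Elk1, the ternary complex factor related to Elk4, had 0.06 in striatum (95% interval -0.18 to 0.29) and 0.05 in cerebellum (-0.19 to 0.28).

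Etv5, a PEA3 factor, had 0.09 in striatum (SE 0.15, adjusted p = 0.804) and -0.01 in cerebellum (SE 0.15) on its brightest probe set, 1428142_at. Its 3 probe sets disagreed. On 1420998_at Q111 striatum ran from 5.79 to 6.90 (median 6.50) and wild type from 5.13 to 6.50 (median 5.76), a difference of 0.70 (SE 0.25, adjusted p = 0.118; higher in 6 of 6 arrays), against -0.24 in cerebellum. The difference between these 2 tissues' differences was 0.94 (SE 0.35) and missed the threshold (adjusted p = 0.336). On 1450082_s_at the differences were -0.05 and -0.14.

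In striatum 1 of the 9 ETS genes other than Ets1 was called, and lower; over all 10766 genes 2.78% were called in either direction and 1.9% lower. The median difference of the 9 was -0.10, with 6 below 0, and that of all genes was -0.03. In cerebellum limma called 0 of the 9 (background 0.446%), with a median of -0.08 against -0.05 for all genes and 7 of them below 0. An unadjusted limma p under 0.05 on the brightest probe set was reached by Ets2, Elk4 and Elf2 in striatum. In cerebellum Elk4 and Gabpa reached it. Over all genes 2071 and 1551 did so. The genotype ranges of 1 of the 9 (Elk4) did not overlap in striatum and those of 0 did so in cerebellum, where the backgrounds were 2.43% and 1.21%. For the interaction, which asks whether the genotype difference depends on tissue, limma called 0 of the 9 (background 0.0836%). On these probe sets an unadjusted p under 0.05 was reached by 0 of the 9 and by 1101 genes in all. Of the dimmer kept probe sets, Etv5 1420998_at (0.94, 95% interval 0.21 to 1.66) and Etv3 1456358_at (0.48, 0.04 to 0.92) had intervals above 0. Their limma adjusted p-values were 0.336 and 0.451, so neither passed. The interaction of Ets1 was not tested, since its rule used both parts of it.

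**Figure D3:**
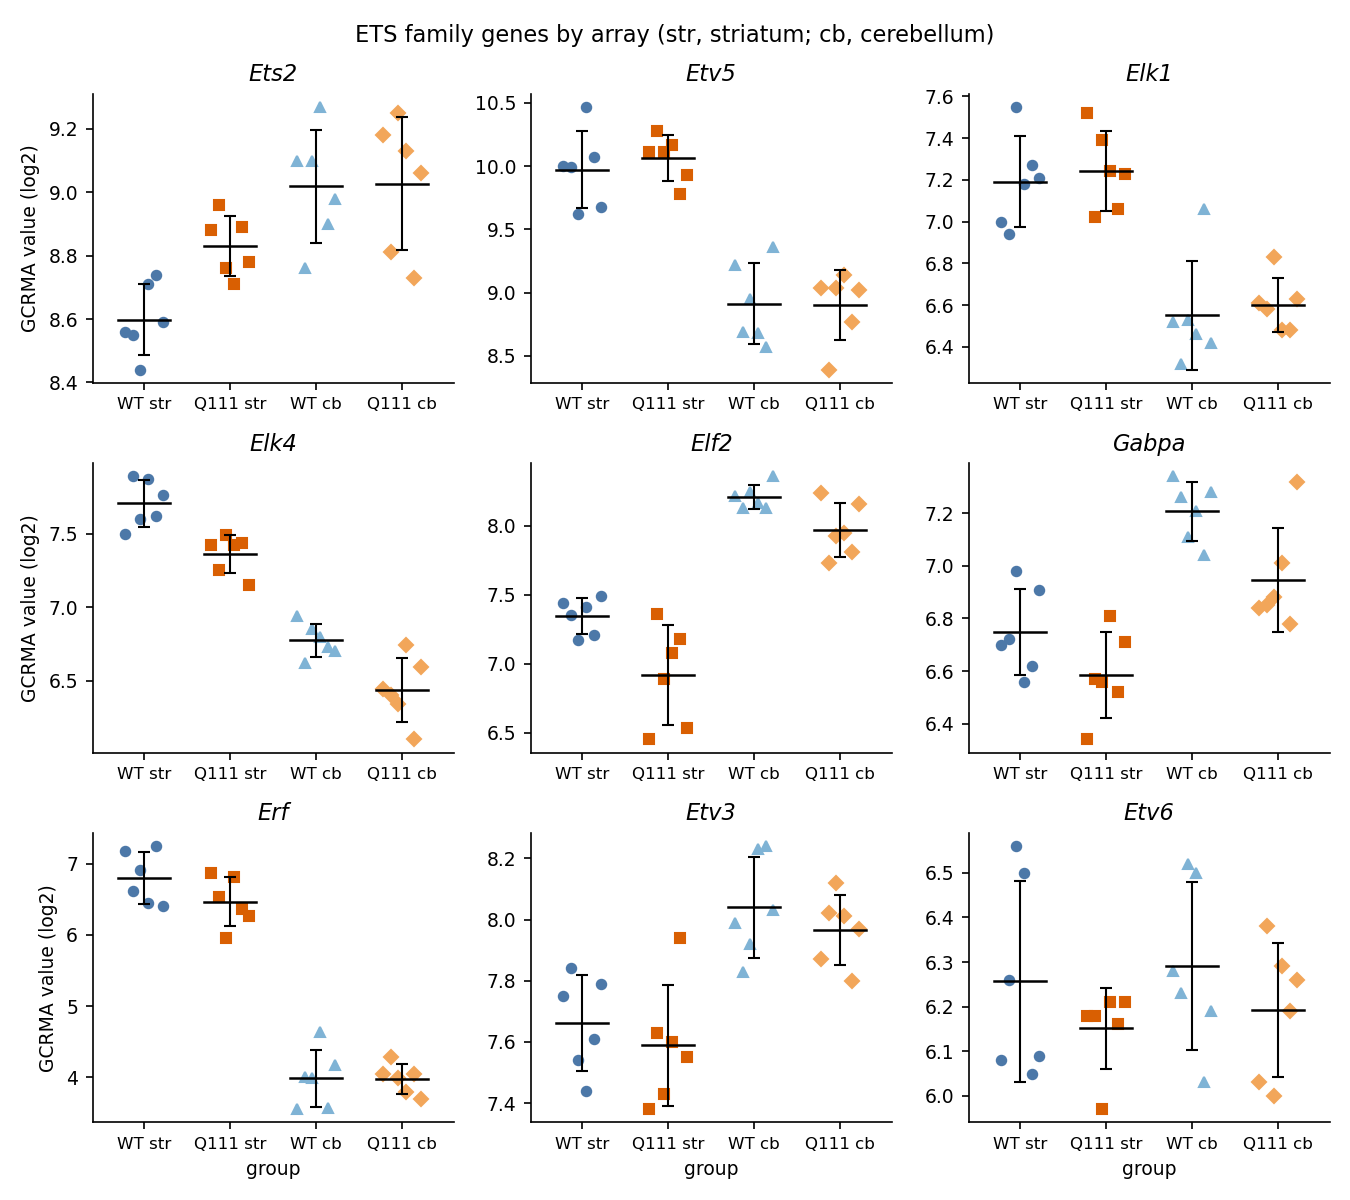
The 9 ETS genes other than Ets1 above the filter on each of the 24 arrays (points), with the group mean and SD as bars; the vertical axis is the GCRMA value on the log2 scale, with a range of its own in each panel. For Elk4 the Q111 arrays lie low in both tissues. For Erf, Etv5, Elk1, Elk4, Elf2, Etv3 and Gabpa the means of the tissues stand further apart than those of the genotypes.

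Tissue separated the family more than genotype did. Of the 10 ETS genes above the filter, 8 differed between striatum and cerebellum in wild type, 4 higher and 4 lower in striatum, against 73.8% of all genes (32.1% higher and 41.6% lower). In Q111, on other arrays, 7 differed, 4 higher and 3 lower, against 73.6% (32.9% and 40.7%). The family's shares are near these backgrounds. The 4 that were higher include Erf, which passed the filter through striatum alone. Ranges did not overlap for 6 of the 10 in wild type (background 55.2%) and 5 in Q111 (53.9%).

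Erf, a repressor that ERK phosphorylation sends out of the nucleus, was the most unequal. It ran from 6.41 to 7.25 (median 6.77) in wild-type striatum and from 3.55 to 4.63 (median 3.99) in wild-type cerebellum, which is near background. It was higher in striatum by 2.82 log2 (SE 0.19, limma adjusted p = 1.51e-12) in wild type and by 2.49 (SE 0.19, adjusted p = 1.65e-11) in Q111. Erf passed the filter through striatum alone, as its cerebellar group means were 3.98 and 3.97. The filter thus favoured a higher striatal value, and no weight is put on these p-values. With values under 4 set to 4, an alternative added after seeing the data, the differences were 2.67 and 2.40. No striatal array reached down to a cerebellar one.

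Etv5, which fibroblast growth factor signalling induces, ran from 9.62 to 10.47 (median 10.00) in wild-type striatum and from 8.57 to 9.36 (median 8.82) in wild-type cerebellum. It was higher in striatum by 1.06 (SE 0.15, adjusted p = 1.21e-06) in wild type and 1.16 (SE 0.15, adjusted p = 3.12e-07) in Q111, and all 3 of its probe sets had this direction in both genotypes. Etv4, its partner in the PEA3 group, lay below the filter and had the opposite sign. On 1423232_at it read 1.89 to 2.03 in wild-type striatum and 2.56 to 3.57 in wild-type cerebellum, a difference of -1.10 (SE 0.14) in a fit of all probe sets without the filter (adjusted p = 8.56e-07), and -0.93 in Q111. Its levels are close to background, where the size of a GCRMA difference is least certain.

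Both ternary complex factors above the filter were higher in striatum. Elk4 differed by 0.94 (SE 0.09, adjusted p = 2.99e-09) in wild type and 0.93 (SE 0.09, adjusted p = 3.74e-09) in Q111, without overlap in either. Elk1 differed by 0.64 (SE 0.11, adjusted p = 2.70e-05) in wild type and 0.65 (SE 0.11, adjusted p = 2.31e-05) in Q111, and in wild type the ranges met because of a single cerebellar array at 7.06. Its other kept probe set, 1421896_at, gave smaller differences of 0.21 (adjusted p = 0.226) and 0.17 (adjusted p = 0.345), neither past the threshold. Elk3, the third of the group and below the filter, differed by 0.29 (adjusted p = 0.11) and 0.45 (adjusted p = 0.0137) on 1448797_at in the fit without the filter, at group means of 3.40 to 3.85.

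Lower in striatum were Elf2, Gabpa, Etv3 and, in wild type, Ets2. Elf2 differed by -0.86 (SE 0.12, adjusted p = 1.15e-06) in wild type and -1.06 (SE 0.12, adjusted p = 5.04e-08) in Q111. Gabpa differed by -0.46 (adjusted p = 1.25e-04) and -0.36 (adjusted p = 0.00142) on its brightest probe set and by -0.18 and -0.01, neither past the threshold, on the other. Etv3 differed by -0.38 in both genotypes (adjusted p = 8.62e-04 and 9.65e-04). Its dimmer probe set 1456358_at, which passed the filter through cerebellum alone, gave -1.31 and -0.83.

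Ets2 was 0.42 lower in wild-type striatum than in wild-type cerebellum (SE 0.09, log2 difference -0.42, adjusted p = 2.41e-04) and differed by -0.20 in Q111 (SE 0.09, adjusted p = 0.0563). The change in this gap between genotypes is the interaction, 0.22 (SE 0.13), which missed the threshold (adjusted p = 0.589). Etv6 differed by -0.03 and -0.04 between tissues (95% interval -0.24 to 0.17 in wild type).

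**Figure D4:**
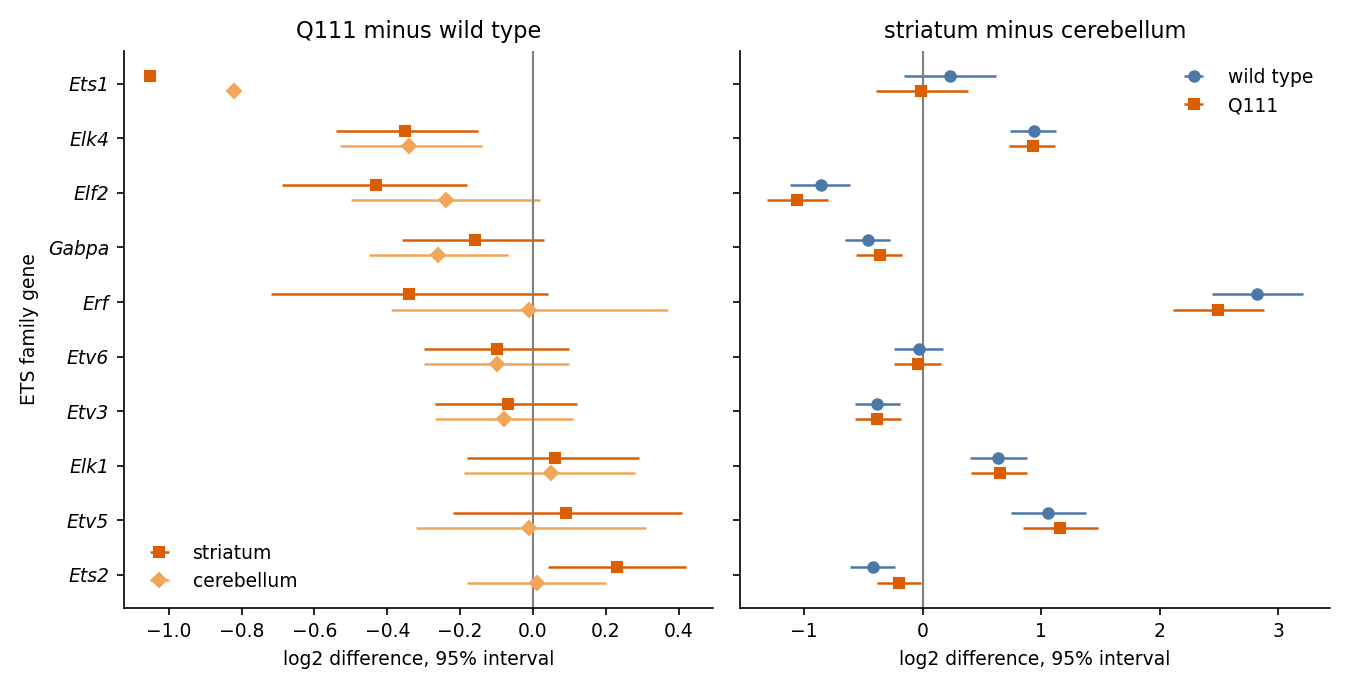
Log2 differences of the 10 ETS genes above the filter with 95% intervals from the fit over 24 arrays: Q111 minus wild type in each tissue (left) and striatum minus cerebellum in each genotype (right), on axes of different range. Ets1 has no interval on the left, since it was chosen on that contrast; its points at -1.05 and -0.82 lie left of all others, and the Erf points on the right reach 2.82 and 2.49.

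Genes of the signal chain that feeds these factors were compared between genotypes, where 2.78% of all genes were called in striatum and 0.446% in cerebellum. Of 13 measured genes of the Ras and ERK cascade, 1 was called in striatum, the small GTPase gene Rras, which fell by 0.45 (SE 0.11, adjusted p = 0.0347), and 0 in cerebellum, where it read -0.23 (adjusted p = 0.372). Of 14 feedback regulators and growth factor receptors tied to PEA3 factors limma called 0 in either tissue. The phosphatase genes Dusp6 and Dusp4 had the largest differences among them, -0.45 for Dusp6 in striatum (adjusted p = 0.156) and -0.67 for Dusp4 in cerebellum (adjusted p = 0.302).

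Of 12 targets of SRF and the ternary complex factors limma also called 0 in either tissue, with medians of -0.22 in striatum and -0.13 in cerebellum against -0.03 and -0.05 for all genes. Fos, the best-known target, read -0.36 (SE 0.41, adjusted p = 0.696) in striatum and -1.02 (SE 0.41, adjusted p = 0.265) in cerebellum, and Junb read -0.21 and -0.70. The standard errors of both are wide beside those of the ETS genes. Between tissues 8 of the 12 were higher and 3 lower in striatum in each genotype, where 73.8% of all genes were called in wild type and 73.6% in Q111. Their median was 2.28 in wild type against -0.08 for all genes.

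Of 11 cofactors and regulators of ETS proteins, 2 rose in striatum, where 2.78% of all genes were called, and 0 were called in cerebellum (background 0.446%). Mrtfa, an actin-regulated SRF cofactor that competes with ternary complex factors, rose by 0.48 (SE 0.11, adjusted p = 0.0265), and Fbxw7, the substrate receptor of a ubiquitin ligase, rose by 0.38 (SE 0.09, adjusted p = 0.0295). In cerebellum they read -0.11 and 0.10.

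Ets1 was then compared with every other gene by its rise and fall across arrays. With tissue means removed, which leaves the genotype difference in, the 5 genes closest to Ets1 over the 24 arrays were Cldn5 (r = 0.93), Mid1ip1 (0.91), Khdc4 (0.89), Cobll1 (0.88) and Yipf3 (0.87). Among ETS genes Elk4 was closest, in place 12 of 10765 with r = 0.84, followed by Elf2 at 0.65 and Gabpa at 0.64. Etv3 stood at 0.30, Etv6 at 0.16, Elk1 and Erf at 0.03, Etv5 at -0.01 and Ets2 at -0.29. These correlations contain the contrast on which Ets1 was chosen.

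With group means removed, so that only differences between arrays of a group remain, the closest were Cldn5 (r = 0.78), St3gal6 (0.78), Afap1 (0.75), Hps3 (0.74) and Mid1ip1 (0.74), and the median over all other genes was 0.11. They encode a tight junction protein of the blood-brain barrier, a sialyltransferase, an actin-binding adaptor, a component of organelle trafficking and a regulator of lipid synthesis. By genotype, St3gal6 read 0.49 in striatum and -0.26 in cerebellum, and Afap1 read -0.06 and -0.10. Hps3 read -0.28 and -0.06, and Mid1ip1 read -0.26 and -0.21. Among ETS genes Elk4 had r = 0.60, Gabpa 0.40, Elk1 0.27, Elf2 0.26, Etv3 0.17, Etv5 0.13, Ets2 0.09, Etv6 -0.18 and Erf -0.42. All values come from the same 24 hybridisations and share their normalisation, and no test is attached to them.

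Cldn5 headed both orders. The order with tissue means removed contains the contrast on which Ets1 was chosen, so it favours genes that differ by genotype. For that reason Cldn5 was likely to be lower in Q111, and no weight is put on its p-values. It ran from 8.03 to 8.44 (median 8.20) in wild-type striatum and from 7.30 to 7.69 (median 7.42) in Q111 striatum, without overlap, and fell by 0.73 there (SE 0.11, adjusted p = 5.99e-04). In cerebellum it ran from 7.65 to 8.28 in wild type and from 7.20 to 7.76 in Q111, a difference of -0.42 that missed the threshold (SE 0.11, adjusted p = 0.0781). Within tissues, with group means removed, its correlation with Ets1 was 0.92 over the 12 cerebellar arrays and 0.51 over the 12 striatal ones. The Q111 cerebellar array that was high for Ets1 was also the highest of its group for Cldn5.

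**Figure D5:**
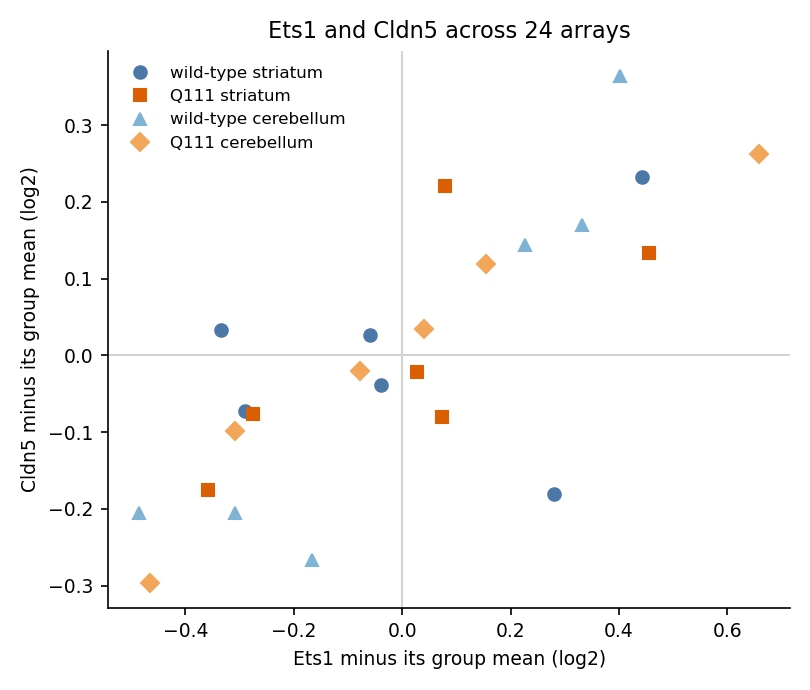
Ets1 (horizontal axis) against Cldn5 (vertical axis) on the 24 arrays, each as the difference in log2 from the mean of its group. The cerebellar arrays (triangles and diamonds) follow a line more closely than the striatal ones (circles and squares), with correlations of 0.92 and 0.51.

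Cldn5 marks brain endothelium, where Ets1 is also made, so the endothelial markers are given as a list. Of 19 measured endothelial genes 12 passed the filter, and Cdh5, Kdr, Pecam1, Robo4, Sox17, Sox18 and Tie1, several of them defining markers, lay below it. Of the 12, Cldn5 alone was called in striatum, as lower, and 0 were called in cerebellum, against 2.78% and 0.446% of all genes. Since Cldn5 was brought in by its likeness to Ets1, no weight is put on its call. The medians were -0.14 and -0.11, against -0.03 and -0.05 for all genes. The mean of the 12 ran from 6.29 to 6.48 in Q111 and from 6.40 to 6.69 in wild-type striatum, and from 6.03 to 6.18 and from 6.21 to 6.38 in cerebellum. The genotypes overlapped in striatum and not in cerebellum, where 1.21% of single genes did not overlap. This mean includes Cldn5, and how often means of 12 other genes separate was not tested. After removal of group means the 12 had a median r of 0.11 with Ets1, the same as all genes. The cell type lists furthest from that value were the 14 oligodendrocyte genes (median r 0.33), the 4 mural genes (0.31) and the 4 kept genes of the lymphocyte list (-0.34). The Cd3 genes of that last list lay below the filter, so its kept genes are not read as a measure of lymphocytes. The part of endothelial RNA in the Ets1 difference was not tested.

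Markers of immune and mural cells gave these values, beside the same backgrounds of 2.78% in striatum and 0.446% in cerebellum. Of 11 measured lymphocyte genes 4 passed the filter and limma called 0 of them in either tissue, and Cd2, Cd3d, Cd3e, Cd3g, Cd79a, Cd79b and Il2rb lay below it in all groups. Of 8 measured mural cell genes 4 passed the filter, and Abcc9, Cspg4, Kcnj8 and Tagln lay below it. Of these 4 kept genes the pericyte gene Rgs5 fell by 0.30 in striatum (limma adjusted p = 0.0407) and 0 were called in cerebellum. The mean of the 4 ran from 7.45 to 7.66 in Q111 and from 7.63 to 7.96 in wild-type striatum. In cerebellum it ran from 6.98 to 7.34 in Q111 and from 7.15 to 7.49 in wild type. Of 15 measured microglia genes 12 passed the filter, and Itgam, Siglech and Trem2 did not. Of the 12, 3 rose and 1 fell in striatum, and their mean there ran from 6.97 to 7.42 in wild type and from 7.22 to 7.49 in Q111. The median difference of the 12 there was 0.0, against -0.03 for all genes. The 3 that rose, C1qa, C1qb and C1qc, encode complement C1q and rose by 0.44 (adjusted p = 0.0418), 0.67 (0.00478) and 1.04 (0.0274). The gene that fell was Aif1, by 0.34 (adjusted p = 0.0499); it is outside the naming rule and was picked after its value was known.

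Single members of neuronal and glial lists also passed the genotype test, which called 2.78% of all genes in striatum and 0.446% in cerebellum. Cortical neuron markers, 7 in number, had a median of 0.51 in striatum, where Neurod6 rose by 1.12 (adjusted p = 0.00345) and Fezf2 by 0.71 (0.0132), and their mean ran from 6.97 to 8.02 in Q111 against 6.63 to 7.38 in wild type. Of 14 oligodendrocyte genes the protease gene Klk6 fell in both tissues, by 0.86 (adjusted p = 0.0103) and 0.78 (0.0417). The medians of the 14 were -0.16 in striatum and -0.07 in cerebellum, against -0.03 and -0.05 for all genes. Of 11 astrocyte genes the transporter gene Slc7a10 fell in striatum, by 0.43 (adjusted p = 0.0268), while the median of the 11 there was 0.04. Of the 8 striatal neuron, 12 cerebellar neuron and 6 choroid plexus genes limma called 0 by genotype in either tissue. The part of any of these cell types in the ETS differences was not tested.

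The genes around Ets1 could not serve as a local comparison. Ets1 and Fli1 lie near each other on chromosome 9, and Ets2 and Erg on chromosome 16. Within 3 genes on each side of these 4, Kcnj1 beside Fli1 and Kcnj15 beside Erg had probe sets with a single symbol, and neither passed the filter. Fli1 and Erg were below it too, with highest group means of 3.07 and 2.95. The remaining named factor, Elf1, reached at most 3.03.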

How the data were processed

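Biotin-labelled total RNA, isolated with Trizol and Qiagen columns per the labels' protocols, was hybridised. The authors deposited a GCRMA table of 45101 probe sets, per the submitters' processing notes, in which no version is named; the deposited values were read as log2. The 64 controls were left out. Of the 45037 others, 34945 had 1 gene symbol, 932 several and 9160 none. All 24 arrays entered a linear model with a mean per group in limma 3.58.1 (R 4.3.3; 20 residual and 3.22 prior degrees of freedom). P-values of limma's eBayes test were adjusted by Benjamini-Hochberg across the 20738 kept probe sets and called under 0.05, and the fit was tested on simulated data. Intervals are at 95%. With 6 against 6 arrays the smallest exact permutation p is 0.00216. The number of arrays limits the precision.

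The members and lists were chosen with earlier results of these data known. Named were the 10 factors, other ETS genes above the filter, up to 3 called members of each gene list (with none, up to 2 by size), gene neighbours, and the 5 genes closest to Ets1 by each correlation. Alternatives covered the filter, scaling, variance prior, array weights, replicate numbers, subsets of arrays, the choice of probe set and each array left out.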

Additional observations from a re-analysis of the deposited data

Results flagged for a closer look

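Of 76 sets of 6 arrays (19 kept ETS probe sets in 4 groups), 3 held an array far from the rest by Dixon's gap test at its 95% level; chance flags about 1 in 20 such sets. Elk1 on 1421897_at read 7.06 in wild-type cerebellum array 5, against 6.32 to 6.53 in the others (gap over range 0.717). Etv6 on 1434880_at read 5.97 in Q111 striatum array 3, against 6.16 to 6.21 (0.774). Ets2 on 1447685_x_at read 3.34 in wild-type striatum array 1, against 3.90 to 4.12 (0.722), near background.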

How the results depend on the processing

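Ets1 was chosen for its lower level in Q111, so the stability of that difference on the same arrays is a description and no support. The Ets1 difference kept its sign in every setting. As each array was left out, it ran from -1.15 to -0.97 in striatum and from -0.95 to -0.73 in cerebellum. It was at most -0.77 and -0.63 in the 13 other settings. In striatum the count of ETS genes other than Ets1 called was 1, and it became 0 with no filter, with the replicate block, with the set of replicate numbers as a term, with each tissue alone, and with numbers 1 to 3 only or 4 to 6 only; it ran from 0 to 1 as each array was left out. In cerebellum it became 1 with array weights. The Ets1 tissue difference in Q111, -0.01, changed sign with quantile normalisation (0.02), array weights (0.00), numbers 1 to 3 only (0.03) and the mean of kept probe sets (0.12), and ran from -0.10 to 0.12 as each array was left out. The causes of these changes were not tested. Same-numbered arrays of different groups correlated at -0.423 to 0.183 in their deviations, and between the striatal genotypes all lay below 0 (-0.409 to -0.0881). The replicate numbers were not taken to pair arrays of different genotypes. Between the tissues of a genotype the mean was 0.0829 in wild type and 0.0409 in Q111. For arrays of unlike number it was -0.0167 and -0.00807. A pairing of tissues by animal was not tested, and the replicate block was set within each tissue. With that block, Elk4 in striatum had a limma adjusted p of 0.113. Between tissues, Etv3 and Gabpa each missed the threshold in at most 2 settings, and those of Elf2, Elk1, Elk4, Erf, Etv5 and, in wild type, Ets2 on their brightest probe sets held in all settings run. The tissue calls of Etv4, Elk3 and Ets1 on 1426725_s_at were not rerun. Median centring moved the median difference of all genes in cerebellum from -0.05 to 0.05. The interaction could not be fitted on a tissue alone. Values under 4, near background, limit what can be said of the 14 ETS genes below the filter.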
